A study of Mus musculus with 4 samples.

Results

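The Meis-binding regions around Tbx15, Emx2 and Pax1 were described in FL and HL buds of wild-type mouse embryos. A region was taken as a member when its summit, the position of highest signal, fell in a window of 700 kb around 1 of the 3 genes in the mm9 build. The window ran from 358 kb upstream to 342 kb downstream of the start of Tbx15 on chromosome 3, from 333 kb upstream to 367 kb downstream of that of Emx2 on chromosome 19 and from 291 kb upstream to 409 kb downstream of that of Pax1 on chromosome 2. The rule used positions alone and no measured height. It took 41 of 21338 regions in FLs and 30 of 16987 regions in HLs, which held 47 of 22906 and 36 of 17810 summits.

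Tbx15, a T-box transcription factor, Emx2, a homeodomain transcription factor, and Pax1, a paired-box transcription factor, are known for their roles in the limb girdles, the bones that join the limbs to the trunk. Loss of Tbx15 in the mouse alters the scapula, loss of Emx2 removes most of the scapula and the ilium, and loss of Pax1 affects the acromion of the scapula, besides its role in the sclerotome that forms the vertebrae. Meis1 and Meis2 are homeodomain factors of the TALE family that bind DNA with Pbx and Hox partners and mark the proximal part of the limb bud, from which the girdles and the upper limb form.

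The series consisted of 4 ChIP-seq libraries from C57BL/6 embryos at E10.5 with 36 somites. About 500 FL buds and about 500 HL buds were each pooled, and antibodies against Meis1 and Meis2 were used together, so that binding of the 2 proteins cannot be told apart. Each limb gave 1 library of precipitated chromatin and 1 input library, that is, chromatin before precipitation, all read over 50 bp from one end. With whole buds pooled, binding in few cells and weak binding in many cannot be told apart, and the single library of each limb leaves its values without replicate error, so that the limbs were compared without a test.

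The lists give, for each summit, its fold over the local background, a p-value and a q-value, which is the p-value adjusted over the genome by the peak caller. The number of ChIP reads behind each fold was worked back from the fold and the p-value, and gave each fold a 95% counting interval. At the lowest background, 1 read was worth 0.177 fold in FLs and 0.227 fold in HLs. Regions of the lists were supported by a median of 15 reads in FLs and 12 reads in HLs, so a typical member rested on few reads. The intervals cover counting error of the ChIP reads only.

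All 3 genes had Meis-binding regions in both limbs, and none of these regions lay at a gene start. The Tbx15 window held 13 FL and 9 HL regions, the Emx2 window 16 FL and 12 HL regions and the Pax1 window 12 FL and 9 HL regions. This came to 13.7 FL and 10 HL regions per 700 kb, where the whole lists held 5.68 and 4.52. Merging overlapping regions of the limbs gave 54 places, of which 17 were listed in both limbs, 24 in FLs alone and 13 in HLs alone. Tbx15 had 6 shared places of 16, Emx2 had 6 of 22 and Pax1 had 5 of 16.

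**Figure D1:**
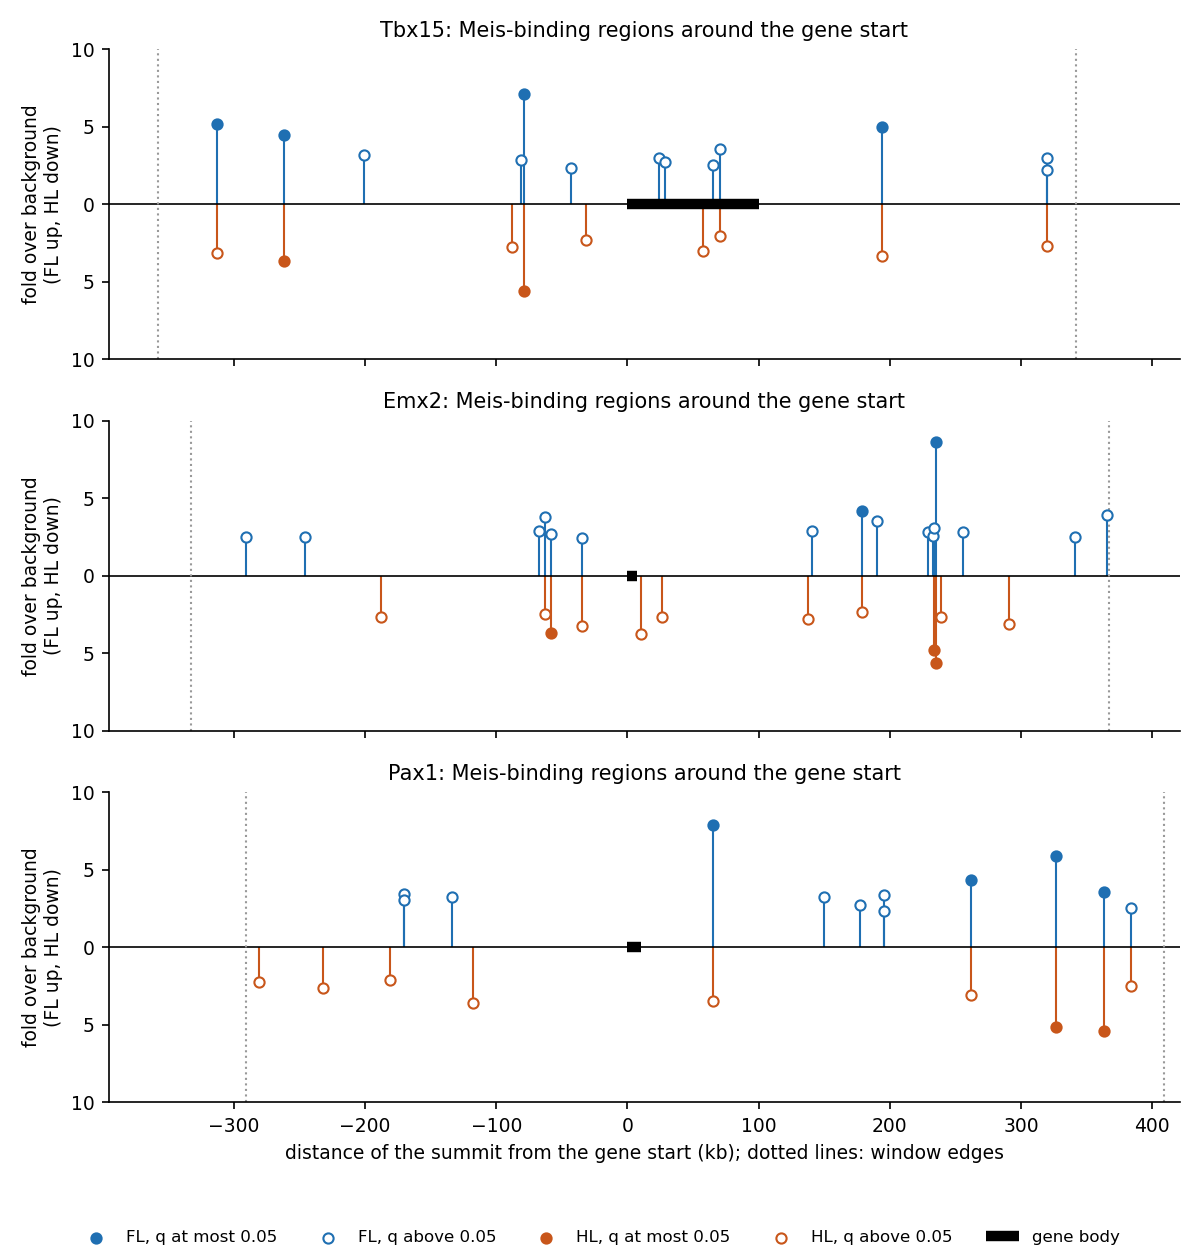
Meis-binding regions around Tbx15, Emx2 and Pax1, with the distance of the summit from the gene start in kb on the x axis and the fold over background on the y axis, FL regions drawn upwards and HL regions downwards. Filled points have a q of at most 0.05, the black bar is the gene body and the dotted lines are the window edges. No point lies within 5 kb of a start, and the tallest FL points are 7.12 for Tbx15, 8.61 for Emx2 and 7.86 for Pax1.

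The shared places made up 17 of 41 FL regions, or 41.5% (Wilson 95% interval 27.8 to 56.6), where 22.6% of all FL regions had an HL region over them. They made up 17 of 30 HL regions, or 56.7% (39.2 to 72.6), where 29.0% of all HL regions had an FL region over them. Both background shares lay below the intervals, which treat neighbouring regions as independent. Regions with q at most 0.05 numbered 10 of 41 in FLs (24.4%, interval 13.8 to 39.3) and 7 of 30 in HLs (23.3%, interval 11.8 to 40.9), against 17.4% and 10.1% of the whole lists. The FL share was thus within counting error of its background, whereas the background of HLs lay below the interval. These intervals, too, treat neighbouring regions as independent, and 2 of the 7 HL regions lay next to each other downstream of Emx2. The contrast is therefore not read as a difference between the limbs. A q of 1 was given to 20 of the 41 FL regions and 19 of the 30 HL regions, whereas 68.8% of all FL and 78.8% of all HL regions had it, so that the windows held a smaller share of such regions than the whole lists.

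The regions with the lowest q-values were found in both limbs. All 10 FL regions and all 7 HL regions with q at most 0.05 had a region of the other limb over them (Wilson lower bounds 72.2% and 64.6%), where the whole lists gave 67.0% and 89.3% for regions of the same q. The HL share was thus within counting error of its background, and the FL background lay below the interval, with neighbouring regions treated as independent. The regions with q at most 0.05 fell on 12 places, 4 at each of Tbx15, Emx2 and Pax1, of which 5 passed q in both limbs. The median fold of FL regions was 4.17 at the 17 shared places and 2.84 at the 24 others, and that of HL regions was 3.33 and 2.66. Shared regions were also higher than the others over the whole lists, with medians of 3.77 and 2.70 in FLs and 3.29 and 2.66 in HLs.

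Most places lay more than 100 kb from the gene starts, as does most of each 700 kb window. These distances were not compared with those of regions elsewhere, so they are not read as a trait of the 3 genes. Of the 54 places, 0 were within 5 kb of the start, 7 were 5 to 50 kb from it, 10 were 50 to 100 kb from it and 37 were farther. The nearest place lay 10.4 kb from the start of Emx2, 24.3 kb from the start of Tbx15 and 65.2 kb from the start of Pax1. By distance from the start in the annotation, 5 places were in introns of Tbx15, none in an exon of the 3 genes, and 17 in the bodies of other genes. The windows also hold other genes whose starts are closer to some places than those of the girdle genes, and a place is tied to a girdle gene here by position alone.

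Tbx15 starts at chr3:99057683 and runs over about 100 kb on the plus strand with 8 exons. Its highest place lay 78.6 kb upstream, within the body of Wars2, which encodes the mitochondrial tryptophanyl-tRNA synthetase and starts at chr3:98944991. The start of Wars2 is closer to this place than that of Tbx15. At this place (chr3:98978867-98979326) the fold was 7.12 in FLs (5.16 to 9.63, 38 reads, q = 1.35e-08) and 5.62 in HLs (3.70 to 8.24, 23 reads, q = 5.48e-05). The summits of both limbs were 7 bp apart and the intervals overlapped, so that a difference in height between the limbs was not settled beyond counting error.

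The farthest upstream places of Tbx15 were also shared. At chr3:98744896-98745239, 313 kb upstream, the fold was 5.18 in FLs (3.55 to 7.35, 27 reads, q = 0.000536) and 3.12 in HLs (1.8 to 5.15, 12 reads, q = 1). This place is closer to the start of Hao2 (chr3:98697162), a hydroxyacid oxidase gene, than to that of Tbx15. At chr3:98795084-98795421, 262 kb upstream, the fold was 4.50 in FLs (3.27 to 6.06, 39 reads, q = 0.000245) and 3.68 in HLs (2.44 to 5.35, 24 reads, q = 0.0156). This place, too, is closer to the start of Hao2 than to that of Tbx15. Its 39 FL reads were the most of any region in the window, over an expected background of 6.89 reads, where the lowest background of the library was 3.36 reads.

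Downstream of Tbx15, the place at chr3:99251213-99251489, 194 kb from the start and beyond the 3' end of the gene, had a fold of 4.98 in FLs (3.51 to 6.89, 32 reads, q = 0.000321) and 3.33 in HLs (2.16 to 4.96, 21 reads, q = 0.169). It lay in no annotated gene. The remaining 2 shared places of Tbx15, 70.5 kb and 320 kb downstream, had q above 0.05 in both limbs, with folds of 3.54 and 2.99 in FLs and 2.06 and 2.68 in HLs. The former lay in intron 5 of Tbx15. The other intronic places were each listed in 1 limb, with FL folds of 2.96 and 2.70 in intron 1, an HL fold of 3.01 in intron 2 and an FL fold of 2.53 in intron 5. Of the 5 intronic places, the 1 at 70.5 kb was thus shared and none passed q. Over the whole lists 22.6% of FL and 29.0% of HL regions were shared, and 17.4% and 10.1% passed q. With 5 places, these counts are near the background. The folds lay around the median of the whole lists, which was 2.78 in both limbs.

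Emx2 starts at chr19:59533180 and is a short gene of about 6.99 kb with 3 exons. The densest binding of the 3 windows lay downstream of it, 233 to 235 kb from the start, in a stretch of 2392 bp (chr19:59766169-59768560) that held 3 FL regions with 5 summits and 2 HL regions with 6 summits. No gene body was annotated over it. The main region of this stretch reached a fold of 8.61 in FLs (6.60 to 11.1, 57 reads, q = 2.24e-14), the highest among all members, and 5.61 in HLs (3.78 to 8.05, 26 reads, q = 9.41e-06). In FLs this region ranked 277 of 21338 by fold.

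The main region downstream of Emx2 was wide as well as high. It spanned 935 bp with 3 summits in FLs (chr19:59767415-59768349) and 1250 bp with 5 summits in HLs (chr19:59767311-59768560), which ranked 49 and 7 by width in the whole lists. Regions with 3 or more summits were 0.844% of the FL list, and regions with 5 or more summits were 0.0353% of the HL list. In FLs, a second summit of the region had a fold of 6.67 (4.94 to 8.84) and the third 2.27 (1.58 to 3.19). In HLs, a second summit had a fold of 4.55 (3.09 to 6.50), and the folds of the other 3 were 3.18, 3.53 and 3.54. The binding here was spread over several maxima. The second FL summit lay near the lower HL summit with a fold of 3.18 (2.04 to 4.78), and the third FL summit lay 2 bp from the HL summit with a fold of 4.55, but the intervals of these HL summits overlapped, so that the order of the HL summits was not settled beyond counting error.

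**Figure D2:**
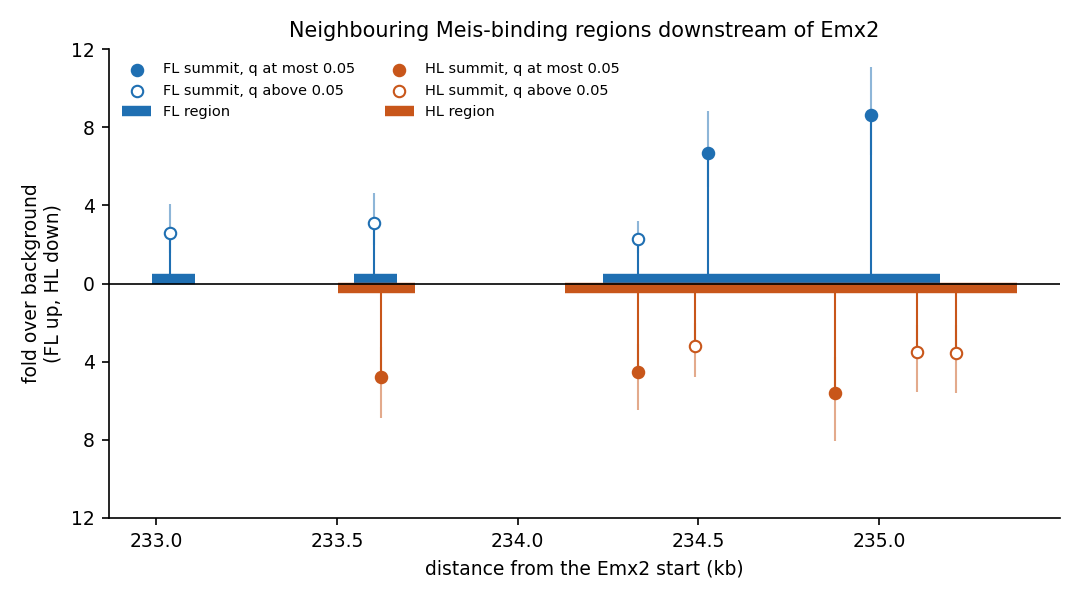
Neighbouring Meis-binding regions downstream of Emx2, with the distance from the gene start in kb on the x axis and the fold over background on the y axis, FLs upwards and HLs downwards. Thick bars are regions, points are summits (filled where q is at most 0.05) and thin lines reach the outer bounds of the 95% counting intervals. The FL fold rises to 8.61 at 1 summit, whereas the 5 HL summits of the wide region lie between 3.18 and 5.61.

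Next to this region, the place 234 kb downstream of Emx2 had its higher fold in HLs, at 4.81 (3.27 to 6.87, 27 reads, q = 0.000301), against 3.09 in FLs (1.99 to 4.64, 19 reads, q = 0.712), with overlapping intervals. At chr19:59712042-59712505, 179 kb downstream, the fold was 4.17 in FLs (3.0 to 5.68, 36 reads, q = 0.00113) and 2.33 in HLs (1.32 to 3.92, 11 reads, q = 1). Upstream, the place 58.3 kb from the start was the only one of the upstream places with q at most 0.05, in HLs alone, with a fold of 3.70 (2.40 to 5.51, 21 reads, q = 0.0476) against 2.66 in FLs (1.63 to 4.21, 14 reads, q = 1). This place is closer to the start of Pdzd8 (chr19:59420270) than to that of Emx2. Of the 4 named places of Emx2, 2 had the higher fold in HLs, and the place 179 kb downstream had it in FLs. The main region was higher in FLs by its highest summits and higher in HLs by the summits nearest to each other, with folds of 2.27 and 4.55. The fold of 2.27 (1.58 to 3.19) belongs to the lowest FL summit of the region. At another neighbouring pair of its summits, the fold was 6.67 in FLs (4.94 to 8.84) and 3.18 in HLs (2.04 to 4.78), with intervals that did not overlap. The direction at this region thus depended on the pair of summits taken.

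The remaining shared places of Emx2 lay 62.8 kb and 34.8 kb upstream and had folds of 3.80 and 2.44 in FLs and 2.48 and 3.27 in HLs, all with q above 0.05. The former is also closer to the start of Pdzd8 than to that of Emx2. The place closest to Emx2, 10.4 kb downstream of the start and thus beyond the 3' end of the gene, was listed in HLs alone. It had a fold of 3.73 (2.34 to 5.71, 18 reads, q = 0.137), the highest of the 13 places listed in HLs alone. The highest of the 24 places listed in FLs alone was also in the Emx2 window, 366 kb downstream but closer to the start of Rab11fip2 (chr19:60019267). It had a fold of 3.94 (2.57 to 5.87, 20 reads, q = 0.105). These 2 places fall outside the rule for named regions and were chosen after their values were seen.

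Pax1 starts at chr2:147190730 and spans about 10.1 kb with 5 exons. Its closest place, 65.2 kb downstream (chr2:147255837-147256095), was also its highest in FLs, with a fold of 7.86 (5.80 to 10.4, 43 reads, q = 1.94e-10). The same place had a fold of 3.46 in HLs (2.12 to 5.42, 16 reads, q = 0.386). The summits were 19 bp apart, and this was the only 1 of the 17 shared places whose counting intervals did not overlap. Over the whole lists the intervals did not overlap in 8.17% of shared pairs, so that 1 of 17, or 5.88%, is near the background.

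The other places of Pax1 with q at most 0.05 lay in no annotated gene body, on the way from Pax1 to Foxa2, a forkhead gene of the notochord and endoderm that starts at chr2:147872705. At chr2:147517538-147518052, 327 kb downstream, the fold was 5.86 in FLs (4.28 to 7.87, 40 reads, q = 3.95e-07) and 5.15 in HLs (3.37 to 7.61, 22 reads, q = 0.000799). At chr2:147553247-147553406, 363 kb downstream, the fold was 3.54 in FLs (2.47 to 4.94, 30 reads, q = 0.0192) and 5.43 in HLs (3.69 to 7.76, 27 reads, q = 3.40e-05), the highest HL fold of the window. At chr2:147452914-147453167, 262 kb downstream, it was 4.30 in FLs (2.84 to 6.29, 22 reads, q = 0.0206) and 3.09 in HLs (1.78 to 5.12, 12 reads, q = 1). The 327 kb and 363 kb places thus passed q in both limbs, and the last shared place, 384 kb downstream, passed in neither limb, with folds of 2.53 and 2.48. The 363 kb and 384 kb places are closer to the start of Foxa2 than to that of Pax1.

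All 5 shared places of Pax1 were downstream, and all 7 places upstream of it were listed in 1 limb only. Over the whole lists 22.6% of FL and 29.0% of HL regions were shared. With 7 places, the upstream count is near the background, so it is not read as a trait of Pax1. The upstream places had folds of 2.09 to 3.57. Of these, 1 lay in Nkx2-4 and 5 lay in the bodies of Nkx2-2 or its antisense transcript Nkx2-2os. Nkx2-2 and Nkx2-4 encode homeodomain factors of the ventral neural tube and brain.

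**Figure D3:**
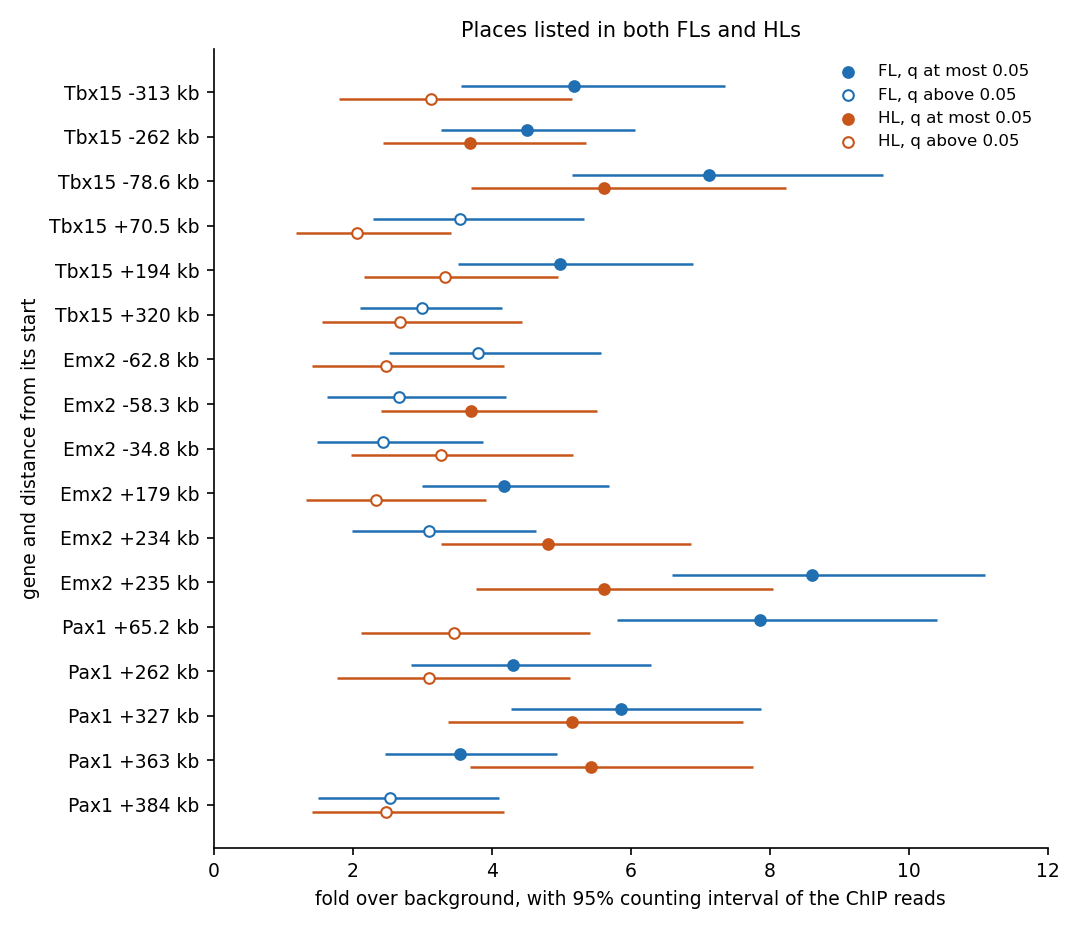
Fold over background (x axis) of the 17 places listed in both limbs, named on the y axis by gene and distance from its start in kb, with FLs in blue and HLs in orange and 95% counting intervals of the ChIP reads. Filled points have a q of at most 0.05. The intervals overlap at 16 places, and at the Pax1 place 65.2 kb downstream the FL interval starts at 5.80 and the HL interval ends at 5.42.

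Across the 17 shared places, the fold was higher in FLs at 13 and in HLs at 4. The median log2 ratio of FL to HL fold was 0.34, with a range of -0.64 to 1.18. Over all 4813 shared pairs the FL fold was higher in 62.1%, against 76.5% here, and the median log2 ratio was 0.17. A higher FL fold was thus common to the libraries as a whole. For Tbx15 it was found at 6 of 6 places with a median log2 ratio of 0.46, for Pax1 at 4 of 5 with a median of 0.19 and for Emx2 at 3 of 6 with a median of 0.10. When the summits nearest to each other were compared in place of the highest ones, the direction for Emx2 turned, with a higher FL fold at 2 of 6 places and a median of -0.45, and the counts for Tbx15 and Pax1 stayed at 6 of 6 and 4 of 5. When reads were set over expected background reads with no pseudocount, the Tbx15 place 320 kb downstream had a ratio of -0.01, which left a higher FL fold at 5 of 6 places of Tbx15. By the highest summits, the largest ratios were 1.18 at the Pax1 place 65.2 kb downstream and 0.84 at the Emx2 place 179 kb downstream, and the lowest were -0.64 and -0.62, at the Emx2 place 234 kb and the Pax1 place 363 kb downstream. By the nearest summits, the lowest ratio was -1.0, at the main Emx2 region, whose highest summits gave 0.62. This value came from the lowest FL summit of that region, and the turn of the Emx2 median came from that region alone. With 1 library per limb, these ratios describe the libraries and the part of depth or precipitation in them was not tested. The median distance between the FL and HL summits was 29 bp, where it was 30 bp over all shared pairs.

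**Figure D4:**
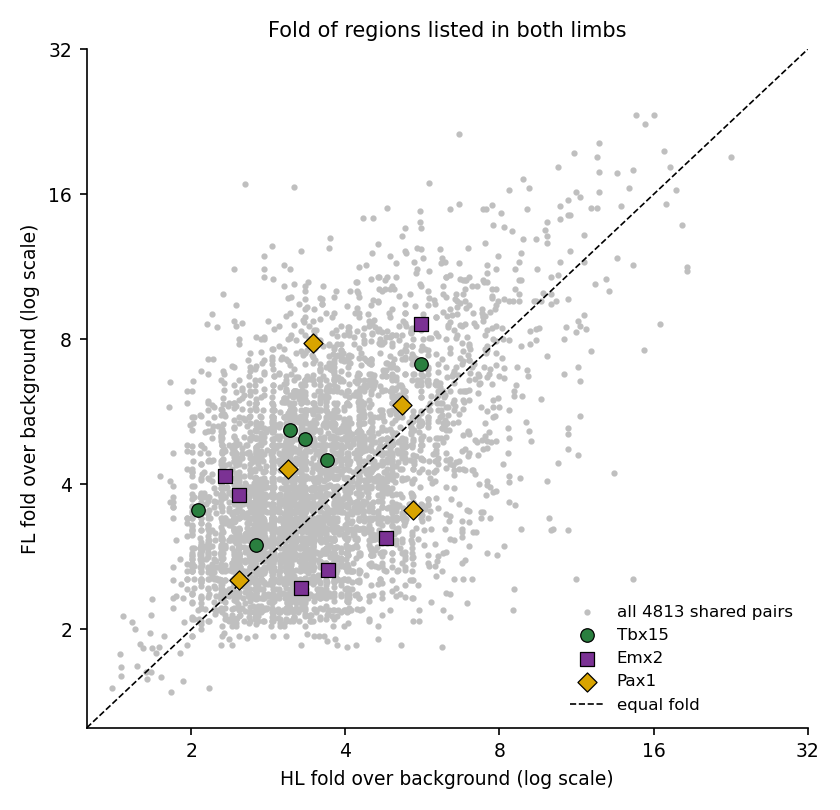
FL fold (y axis) against HL fold (x axis), both on log scales, for all 4813 pairs of overlapping regions (grey) and for the 17 pairs around Tbx15 (circles), Emx2 (squares) and Pax1 (diamonds). The dashed line marks equal folds, 13 of the 17 pairs lie above it by the highest summits (12 by the summits nearest to each other) and all 17 lie within the cloud of the other pairs.

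Places listed in a single limb were low and rested on few reads. The 24 places of FLs alone had folds of 2.22 to 3.94 and 11 to 21 reads, and the 13 places of HLs alone had folds of 2.09 to 3.73 and 9 to 18 reads. None passed q, with lowest q-values of 0.105 and 0.137, where 7.44% of all unshared FL regions and 1.53% of all unshared HL regions did, so that 0 of 24 and 0 of 13 are near the background. A q of 1 was given to 17 of 24 and 11 of 13, against 80.6% and 91.1% of all unshared regions. At the lowest background, the fewest reads with which a summit was listed were 9 in HLs, for a fold of 2.43, and 10 in FLs, for a fold of 2.17. The counting interval lay wholly above that fold of the other limb at 1 of the 24 FL places and 1 of the 13 HL places, which are the Emx2 places 366 kb and 10.4 kb downstream. For the others, absence from the other list was not distinguishable from a region of the same height that missed the cutoff. No place is therefore described as particular to FLs or HLs.

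Several of the places also lay in regions bound by other limb factors. A published list of 884 regions shared by Meis and Hoxc10, a Hox factor of the HL, held the Tbx15 places 313 kb and 262 kb upstream and 320 kb downstream and the Pax1 place 65.2 kb downstream. These were 4 of 41 FL regions, where 4.17% of all FL regions fell in the list, and 4 of 30 HL regions, where 4.56% did. This list was made with Meis peaks of the FL and is not independent of them. A list of 618 regions shared by Tbx5, a T-box factor of the FL, and Hoxc10 was not made from the Meis peaks. It held the Tbx15 places 262 kb upstream and 320 kb downstream and the Pax1 places 65.2 kb and 196 kb downstream, the last listed for Meis in FLs alone. These were 4 of 41 FL regions, where 2.58% of all FL regions fell in the list, and 3 of 30 HL regions, where 2.61% did. No region of either list lay over a Meis region of the Emx2 window.

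Other genes of girdle and proximal limb development were counted for comparison. Of 16 such genes, 13 could be placed in mm9, and Pbx2, Gli3 and Hoxc6 could not. Within 100 kb of the start, all 13 had an FL region and 12 had an HL region, and 10 in FLs and 7 in HLs had one with q at most 0.05, where 47.0% and 28.4% of all 1988 placed genes did. The placed genes were those that a region shared by both limbs had been assigned to, so these shares cannot be read for genes in general. On the same measure, Tbx15 passed q in both limbs, Emx2 in HLs alone and Pax1 in FLs alone. For Emx2 the HL pass came from the place 58.3 kb upstream (q = 0.0476), which is closer to the start of Pdzd8. Its highest HL region, 10.4 kb downstream, did not pass (q = 0.137).

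Of the Alx homeodomain genes of the girdles, Alx4 reached a fold of 8.46 in FLs (6.54 to 10.8) and 8.08 in HLs (5.89 to 10.9), 17.1 kb upstream of its start. Alx1 reached a fold of 4.65 in FLs (3.12 to 6.72) and 2.89 in HLs (1.64 to 4.86). Hoxa5, a gene in a Hox cluster with several neighbours, reached 9.75 in FLs (7.74 to 12.1) and, in HLs, 7.72 (5.65 to 10.3). Pbx3, which encodes a partner of Meis, reached 4.98 in FLs (3.51 to 6.89) and 4.19 in HLs (2.66 to 6.35). Sox9, which drives cartilage formation, had its highest fold in HLs at 6.98 (4.94 to 9.63, q = 5.47e-09), 45.1 kb upstream, while its highest FL region had a fold of 3.59 (2.29 to 5.44, q = 0.499) at another place. Pax9, the paralogue of Pax1, had 1 FL region with a fold of 2.22 (1.34 to 3.56) and no HL region. Compared with these genes by fold alone, Tbx15 and Pax1 lay in FLs between Pbx3 and Alx4. In HLs Tbx15 lay between them as well, at 5.62, and Pax1 lay below Pbx3, at 3.46. Of the other placed genes, Tbx4 was above Tbx15 in both limbs, at 7.30 in FLs and 6.17 in HLs. Isl1, Prrx1, Prrx2, Tbx18, Pitx1 and Tbx5 were below Tbx15 in both limbs. Of these 7 genes, only Tbx18 and Pitx1, in FLs, had an interval apart from that of Tbx15. The intervals of Tbx15 and Pax1 also overlapped those of Pbx3, and this order was not settled beyond counting error. The highest fold was taken over unequal numbers of regions, such as 12 FL and 16 HL regions for Tbx4 against 7 and 5 for Tbx15. The high Emx2 region 235 kb downstream is outside the 100 kb of this measure.

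**Figure D5:**
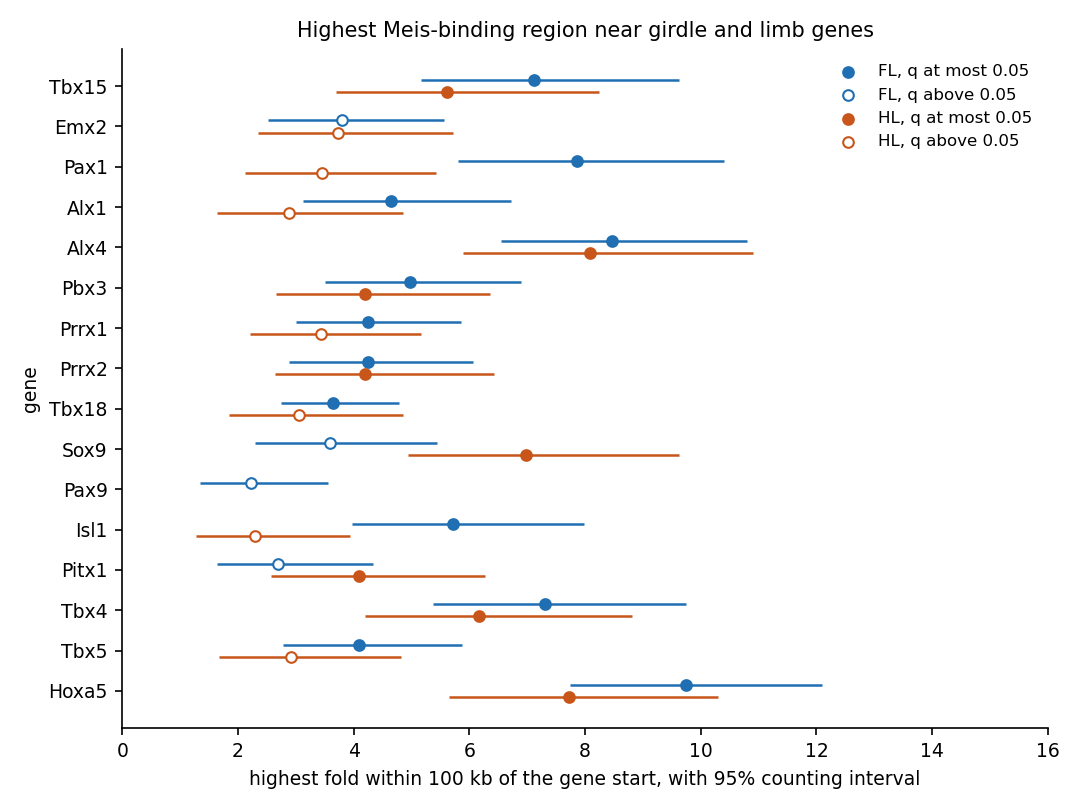
Highest fold over background within 100 kb of the start (x axis) for Tbx15, Emx2, Pax1 and the 13 other girdle and limb genes that could be placed (y axis), with FLs in blue, HLs in orange and 95% counting intervals. Filled points have a q of at most 0.05. Pax1 stands at 7.86 in FLs and 3.46 in HLs, Tbx15 at 7.12 and 5.62, and Emx2 at 3.80 and 3.73. The filling is that of the highest region, so the HL point of Emx2 is open although a lower HL region passed q.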

How the data were processed

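ChIP-seq of Meis1 and Meis2 was performed in FL and HL buds. The authors aligned reads to mm9 with BWA after trimming with cutadapt (version 1.3) and called peaks with MACS2 against the input of the same limb. The deposited fold is the ratio of ChIP signal to local background, each with a pseudocount of 1, as the authors' caller gave it. The deposited −log10 p-value and −log10 q-value come from the same caller, and the authors' score is an integer form of the p-value and was not used in tests. Both lists reach a p of 0.022.

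Summits with the same region were counted once, with the highest fold and lowest p and q. Regions sharing 1 bp were taken as overlapping, and each FL region was paired with the HL region of highest fold over it. Whole ChIP reads behind each fold were solved from fold and p with 1 scale per library (0.436 in FLs and 0.587 in HLs), within 0.002 in −log10 p, for 100% of summits in both lists, and gave exact Poisson intervals. Read recovery and overlaps were tested on simulated data. Shares have Wilson intervals.

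Gene starts in mm9 came from published distances between peaks and genes (1994 rows, agreement within 2 bp). Gene bodies were read from GENCODE M21 (GRCm38) by distance from the start, since distances between the starts of Tbx15 or Pax1 and their neighbours differed by 0 bp between builds. For Emx2 they differed by 318 and 805 bp. The cause of this was not tested, and gene bodies in the Emx2 window are placed less exactly. No coordinate was converted. No sequence was printed, because mm9 sequence was not used here.

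Named regions were those with q at most 0.05 in either limb and the highest of each window. Members, lists and rules were chosen with earlier results of these data known. Some genes of the list for comparison are not reported here and were left out of its counts. Alternatives concerned the cutoff on p or q, the overlap, the window, the counting of summits and the pseudocount. Software was Python 3.11.15 with pandas 2.3.3, numpy 2.4.6, matplotlib 3.10.9 and scipy 1.17.1.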

Additional observations from a re-analysis of the deposited data

How the results depend on the processing

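When the summits nearest to each other were compared, the log2 ratio of FL to HL fold turned from 0.62 to -1.0 at the main Emx2 region, 235 kb downstream, and the median over the Emx2 pairs from 0.10 to -0.45. Both turns rest on the lowest FL summit of that region, and another neighbouring pair of its summits was higher in FLs. Without the pseudocount, the ratio at the Tbx15 place 320 kb downstream turned from 0.16 to -0.01. The counts and shares depended most on the cutoff. At p of at most 0.0005, 21 FL and 15 HL regions remained in the windows instead of 41 and 30, with median folds of 3.80 and 3.68 instead of 3.06 and 3.05, and 66.7% of the FL and 80.0% of the HL regions had a region of the other limb over them. At q of at most 0.05, 10 FL and 7 HL regions were left and 100% were shared in both limbs. Within 100 kb of the gene starts there were 12 FL and 11 HL regions. The fewer regions follow from the stricter cutoff and the narrower window themselves. The count of girdle genes with an HL region of q at most 0.05 was 4 within 50 kb instead of 7 within 100 kb. The other 53 alternative values kept their direction, and moved by less than 1.5 times or stayed within the interval or range of the value reported. For log2 ratios, the 1.5 times applies to the ratio before the log was taken, so single log2 values could move more. By the nearest summits, the log2 ratio at the Tbx15 place 320 kb downstream went from 0.16 to 0.61. The median log2 ratio of FL to HL fold was 0.40 with recovered reads over expected background reads and no pseudocount, against 0.34. This setting, and the use of the nearest summits for single genes and places, were chosen after seeing the data. No paired analysis was possible because each limb had 1 library, and for the same reason no library could be left out. Depth limits the lower regions, where 1 read moved the fold by 0.177 in FLs and 0.227 in HLs.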

Other observations

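High Meis-binding regions also lay beyond the windows. Between the upper edge of the Tbx15 window and the start of Spag17, 632 kb downstream of the start of Tbx15, there were 12 FL and 7 HL regions, and 5 FL and 3 HL ones passed q. The highest of them, 410 kb downstream of Tbx15 (chr3:99467730-99468241 in FLs), had a fold of 10.6 in FLs (8.24 to 13.4, 64 reads, q = 3.39e-19) and 6.88 in HLs (4.94 to 9.37, 37 reads, q = 8.77e-10). These folds were above those of every region inside the Tbx15 window, where the highest were 7.12 and 5.62, and their counting intervals overlapped with those of the highest regions inside it.

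Beyond the Pax1 window, the highest region on the way to Foxa2 lay 521 kb downstream of Pax1, with a fold of 4.82 in FLs (3.66 to 6.24, 53 reads, q = 2.21e-07) and 3.27 in HLs (1.98 to 5.17, 15 reads, q = 1). Beyond the Emx2 window, 2 FL regions and 0 HL regions lay before Rab11fip2, and none passed q. The FL regions nearest to the upper edge of the Tbx15 window had folds of 2.99 inside and 3.38 outside. Those nearest to the upper edge of the Emx2 window had folds of 3.94 inside, 0.935 kb from the edge, and 2.66 outside. None of these regions passed q.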
